A study of Homo sapiens with 12 samples.

Results

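The ISG15 conjugation pathway was followed in HNSCC cells through 6 genes, named by their roles when earlier results of these data were known. They were the modifier ISG15, its activating enzyme UBA7, its conjugating enzyme UBE2L6, the ligases HERC5 and HERC6, and the protease USP18. These were 6 of 39368 gene symbols counted in each cell line, and all 6 passed the filter on low counts in every fit. The lowest count of any of them in any library was 94, for HERC5.

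ISG15 is a small ubiquitin-like protein that is attached to lysines of other proteins by its own enzyme cascade. UBA7 activates ISG15, UBE2L6 carries it, and a HERC ligase passes it on to newly made proteins, with HERC5 as the main ligase of human cells and HERC6 as its close paralog. USP18 removes ISG15 from its targets and, apart from this activity, restrains signaling by the type I IFN receptor. Transcription of all these genes is known to be induced by type I IFN through ISGF3, a transcription factor complex that holds STAT2 and IRF9 and binds the IFN-stimulated response element (ISRE).

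The cells were of the HPV-negative HNSCC lines CAL27 and HSC3, both of which carried a tet-inducible vector with an shRNA against MUC1 (tet-MUC1shRNA). CAL27 cells were grown in DMEM and HSC3 cells in MEM. Each line was treated for 7 days with vehicle (0.1% DMSO) or with 500 ng/mL doxycycline (DOX), which turns on the shRNA, and 3 libraries were made in each of the 4 groups from cells cultured in triplicate. Whether the triplicates were grown at different times is not given in the sources used here, so p-values measure the spread between these cultures. No DOX-treated cells with a control shRNA were analysed here, so loss of MUC1, DOX and the shRNA cannot be told apart. These are bulk RNA samples, in which fewer expressing cells and less RNA per cell cannot be told apart.

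Counts summed to between 89730914 and 169065103 per library. A molecule was estimated to stand behind 2.45 to 3.33 counts in CAL27 cells. In HSC3 cells this was 4.18 to 7.43 counts with vehicle and 8.93 to 17.2 counts with DOX, so a low count in HSC3 cells may stand for few molecules. The estimates read high on simulated libraries (15.2 where 12 had been set), and differences between replicates can raise them too. HSC3 DOX replicate 1, the library with 17.2, stood apart from its group. The chi-square of its counts per degree of freedom was 119 and 79.6 against the other two replicates, which differed from each other by 20.1. The targeted gene MUC1 had 5753 to 8062 counts in vehicle-treated and 285 to 419 in DOX-treated CAL27 cells. In HSC3 cells these were 162 to 196 and 16 to 46 counts. On the scale of CPM, which relates each count to the normalized total of its library (here set within each line), all 7 squamous epithelial markers were above 1 CPM in all groups. In CAL27 cells their summed level was 6802 to 6966 CPM with vehicle against 3293 to 3512 under DOX. In HSC3 cells the sums were 5453 to 6124 and 2570 to 3130 CPM. Thus the summed markers of the cells themselves did not overlap between vehicle and DOX in either line, with the lower sums under DOX, and their part in the results was not tested. Means were lower with DOX in both lines for KRT5, KRT14, KRT17 and TP63, and higher in both for EPCAM (136.7 CPM with vehicle and 179.9 with DOX in CAL27, 50.7 and 92.8 in HSC3). In CAL27 cells those of CDH1 (321.0 and 328.3 CPM) and SFN (246.1 and 249.7) were not lower. Of 5 leukocyte markers none exceeded 1 CPM in any group, and their sum was at most 0.624 CPM in any library, with MS4A1 at 0 throughout. Of 5 fibroblast markers 1 or 2 exceeded 1 CPM (sum 3.84 to 12.9), with COL3A1 at 0 throughout. Of 3 endothelial markers 1 did so in CAL27 cells (sum 9.76 to 16.7) and none in HSC3 cells (sum 0.121 to 0.475).

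In GENCODE v44 on GRCh38, ISG15 spans 1001138 to 1014540 of chromosome 1 on the plus strand, including an upstream start of an alternative transcript, with 867 bases of exon. UBA7 spans 49805209 to 49813953 of chromosome 3 on the minus strand (4550 bases of exon), and UBE2L6 spans 57551656 to 57568284 of chromosome 11 on the minus strand (2062 bases). The ligase genes are neighbors on the plus strand of chromosome 4, with HERC6 at 88378739 to 88443097 (5779 bases of exon) and HERC5 at 88457119 to 88506163 (4764 bases), separated by 14021 bases. USP18 spans 18150118 to 18177397 of chromosome 22 on the plus strand (4095 bases of exon). An antisense pseudogene overlaps 4.15% of the ISG15 exons and the microRNA gene MIR5193 overlaps 2.4% of the UBA7 exons. USP18 has a near-identical copy, USP41, that could share its reads, which leaves USP18 uncertain in part. USP41 had at most 62 counts in any library and 0 in the HSC3 DOX libraries.

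Promoter windows of 250 bases before to 50 after the start site were found in RefSeq (GRCh38.p14) for 4 of the 6 genes, ISG15, UBE2L6, HERC5 and HERC6. They were searched on both strands for the ISRE core GAAANNGAAA and for the IFN-γ-activated site TTCNNNGAA (GAS). The ISRE core was in 3.57% of all 35116 windows of this kind and the GAS in 7.66%. The parts upstream of the start site are shown for the modifier and the neighboring ligases, 5′ to 3′ on the plus strand, with each ISRE core in capitals. They lie at chr1:1013247-1013496 for ISG15, chr4:88456869-88457118 for HERC5 and chr4:88378602-88378851 for HERC6.
ISG15: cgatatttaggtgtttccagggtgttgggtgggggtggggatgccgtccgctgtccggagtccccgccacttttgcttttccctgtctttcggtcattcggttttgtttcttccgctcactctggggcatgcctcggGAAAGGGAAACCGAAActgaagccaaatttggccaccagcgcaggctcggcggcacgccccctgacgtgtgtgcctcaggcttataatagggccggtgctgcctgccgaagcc
HERC5: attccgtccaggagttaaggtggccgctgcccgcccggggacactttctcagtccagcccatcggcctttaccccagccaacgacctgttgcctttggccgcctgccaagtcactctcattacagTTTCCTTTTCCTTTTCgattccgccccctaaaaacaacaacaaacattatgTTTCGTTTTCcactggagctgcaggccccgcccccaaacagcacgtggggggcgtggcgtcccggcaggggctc
HERC6: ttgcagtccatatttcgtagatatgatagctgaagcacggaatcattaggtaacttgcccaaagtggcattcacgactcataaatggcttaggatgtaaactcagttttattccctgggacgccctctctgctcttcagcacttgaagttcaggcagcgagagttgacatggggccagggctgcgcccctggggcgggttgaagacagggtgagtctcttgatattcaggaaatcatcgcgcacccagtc
ISG15 held 2 overlapping ISRE cores on the plus strand, from -113 to -104 and from -107 to -98 relative to the start site. HERC5 held 3 on the minus strand, an overlapping pair from -125 to -116 and from -119 to -110 and a core from -74 to -65. The letters were not in the windows of HERC6 and UBE2L6, and the GAS was in none of the members' windows. A match of letters describes the window and does not show binding.

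From here on, levels are given as CPM normalized by TMM over all 12 libraries, a scale on which libraries and lines can be compared, and a gene was called at an adjusted p under 0.05 by edgeR's two-sided quasi-likelihood test (Benjamini-Hochberg over every gene tested in that fit). In CAL27 cells the RNA of the 6 members was lower with DOX. Protein and ISG15 conjugates were not measured in these libraries. All 6 genes were called lower, against 21.8% of the 19239 genes tested, and none was called higher, against 22.6%. A further limit of FC>2 was passed by 5 of the 6, against 5.11% of all genes. The median log2 fold change of the 6 genes was -1.34, and that of all genes tested was -0.0052.

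ISG15 had 67.5, 57.3 and 58.3 CPM in the CAL27 vehicle libraries and 25, 21.8 and 23.3 in the DOX libraries. Every DOX library was below every vehicle library, and the log2 fold change was -1.39 (SE 0.060, edgeR adjusted p = 3.09e-12). The activating enzyme UBA7 went from 18.2, 19.2 and 17.4 CPM to 6.13, 7.02 and 7.07, a log2 fold change of -1.44 (SE 0.075, edgeR adjusted p = 5.01e-12). The conjugating enzyme UBE2L6 went from 125.2, 117.1 and 120.5 CPM to 69.6, 58.2 and 60.3, a log2 fold change of -0.95 (SE 0.052, edgeR adjusted p = 1.00e-10). Thus the modifier and the enzymes that load it were all lower, and no vehicle and DOX libraries overlapped for any of these genes. The share of all genes without such overlap was not counted, so non-overlap here and below describes these libraries only.

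Of the ligases, HERC6 changed most of the 6 genes. It had 68.0, 60.1 and 66.4 CPM with vehicle and 21.4, 19.5 and 18.7 with DOX, a fall of 3.27-fold (log2 fold change -1.71, SE 0.055, edgeR adjusted p = 6.43e-15). Its neighbor HERC5 went from 26.8, 24.5 and 27.7 CPM to 13.8, 12.9 and 12.3, a 2.03-fold fall (log2 fold change -1.02, SE 0.062, edgeR adjusted p = 4.71e-11). The intervals of the paralogs did not overlap, from -1.82 to -1.59 for HERC6 and from -1.15 to -0.89 for HERC5 on the log2 scale (95%). USP18, the protease that reverses conjugation, had 16.01, 14.7 and 16.7 CPM with vehicle and 7.57, 6.08 and 5.85 with DOX, with a log2 fold change of -1.29 (SE 0.087, edgeR adjusted p = 4.67e-10). The DOX libraries of both ligases and of USP18 were all below the vehicle libraries.

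**Figure D1:**
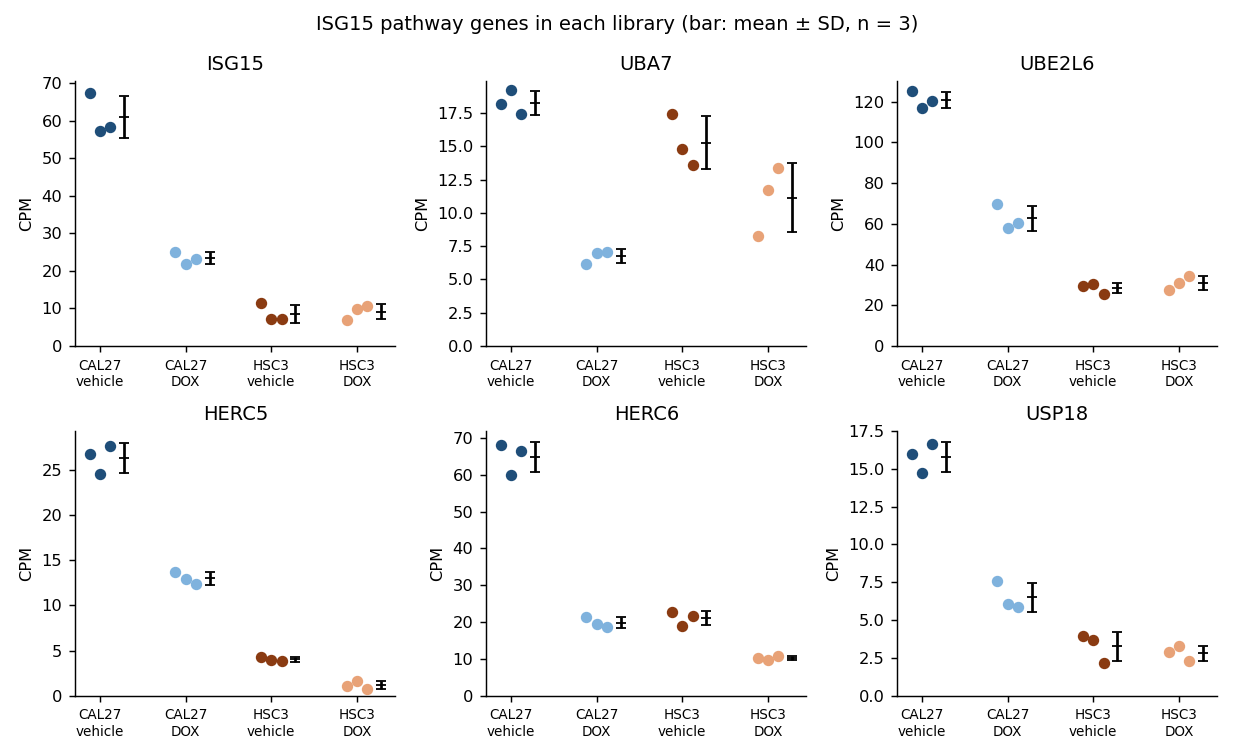
Level of each gene in the 12 libraries (y axes, CPM on a scale shared by all libraries, each axis starting at 0) by cell line and treatment (x axes). Points are libraries, and bars are the mean ± SD (n = 3). In CAL27 cells all 6 genes are lower in every DOX library. In HSC3 cells HERC5, HERC6 and UBA7 have DOX libraries entirely below vehicle, whereas ISG15, UBE2L6 and USP18 overlap. UBA7 was not called in HSC3 cells.

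In HSC3 cells the ligases were lower with DOX, and the other members were not called. HERC5 and HERC6 made 2 of 6 called lower, against 15.4% of the 18021 genes tested, and both passed FC>2, against 4.40% of all genes. None was called higher, against 13.0%. The median log2 fold change of the 6 genes was -0.34, and that of all genes was -0.0097.

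HERC5 had 4.31, 3.94 and 3.81 CPM in the HSC3 vehicle libraries and 1.12, 1.63 and 0.777 in the DOX libraries, or 497, 324 and 455 counts against 166, 220 and 94. It was lower by 3.42-fold (log2 fold change -1.77, SE 0.27, edgeR adjusted p = 5.17e-04), and these DOX libraries are those with the most estimated counts per molecule. HERC6 had 22.7, 19.1 and 21.7 CPM with vehicle and 10.3, 9.66 and 10.8 with DOX, a 2.07-fold fall (log2 fold change -1.05, SE 0.11, edgeR adjusted p = 3.78e-05). For both ligases the vehicle and DOX libraries did not overlap. With each library left out in turn and under the other settings tried, both ligases were still called lower, with edgeR or DESeq2 adjusted p of at most 0.0054 for HERC5 and 6.90e-04 for HERC6. Without DOX replicate 1 their log2 fold changes were -1.73 and -1.05.

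In HSC3 cells ISG15 itself had 11.4, 7.29 and 7.14 CPM with vehicle and 6.94, 9.79 and 10.7 with DOX. The libraries overlapped, and the log2 fold change was 0.083 with an interval (95%) from -0.39 to 0.55 (edgeR adjusted p = 0.83), which does not reach the change measured in CAL27 cells. The spread within each group was wide. The estimate was 0.34 without vehicle replicate 1 and 0.25 without DOX replicate 1, and it was -0.027, -0.032 and -0.048 without vehicle replicate 2, vehicle replicate 3 and DOX replicate 3, uncalled in each. The paper reports that ISG15 protein depends on MUC1-C and cites immunoblots of CAL27 and HSC3 cells. The values here are of RNA, and protein was not measured in these libraries. They therefore cannot show whether ISG15 protein changed in HSC3 cells. UBE2L6 had 29.4, 30.2 and 25.6 CPM with vehicle and 27.6, 30.8 and 34.2 with DOX. These libraries overlapped as well, and the interval ran from -0.12 to 0.35 around a log2 fold change of 0.12 (edgeR adjusted p = 0.49). It was 0.032 to 0.20 with each library left out, the highest being without DOX replicate 1.

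UBA7 stood between these. It had 17.5, 14.8 and 13.6 CPM with vehicle and 8.28, 11.8 and 13.3 with DOX, so that the highest DOX library lay just below the lowest vehicle library. Its log2 fold change was -0.46 (interval -0.84 to -0.08), and it missed the threshold (edgeR adjusted p = 0.071). It was called lower under 5 of 14 alternatives, among them the test by DESeq2 (adjusted p = 0.037) and the fit without DOX replicate 3 (edgeR adjusted p = 0.037), over a range of 0.021 to 0.275. Without DOX replicate 1, the library that stood apart, its log2 fold change was -0.28 (edgeR adjusted p = 0.068). USP18 had 3.96, 3.69 and 2.17 CPM with vehicle and 2.86, 3.29 and 2.31 with DOX. The groups overlapped, and the interval of its log2 fold change of -0.22 ran from -0.76 to 0.33 (edgeR adjusted p = 0.59). It was -0.44 without vehicle replicate 3 and -0.050 without vehicle replicate 1, and was -0.22 without DOX replicate 1.

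**Figure D2:**
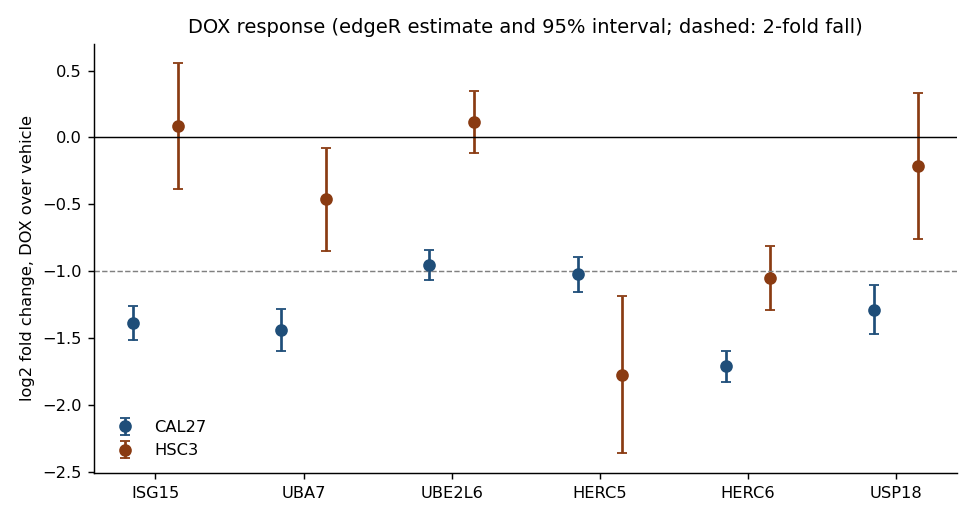
Log2 fold change of each gene with DOX (y axis) in CAL27 and HSC3 cells (x axis, by gene). Points are edgeR estimates, bars are 95% intervals, the solid line is no change and the dashed line a fall by a factor of 2. The HSC3 points of ISG15, UBE2L6 and USP18 have intervals that cross 0, and HERC5 is the member whose HSC3 point lies below its CAL27 point.

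The response of the lines was compared directly as an interaction term in a fit of all 12 libraries, expressed as the HSC3 response minus the CAL27 response. A positive difference was called for 5 of the 6 genes, against 8.25% of the 20694 genes tested. It stood for a smaller fall in HSC3 cells or for none, as ISG15 and UBE2L6 had log2 fold changes of 0.083 and 0.12 there. A negative difference, a larger fall in HSC3 cells, was called for 1 of the 6, HERC5, against 12.3% of all genes. The difference was 1.47 on the log2 scale for ISG15 (SE 0.24, edgeR adjusted p = 3.95e-04), 1.07 for UBE2L6 (SE 0.12, edgeR adjusted p = 2.10e-05) and 1.07 for USP18 (SE 0.27, edgeR adjusted p = 0.0098). It was 0.98 for UBA7 (SE 0.20, edgeR adjusted p = 0.0029) and 0.66 for HERC6 (SE 0.12, edgeR adjusted p = 8.08e-04). These 5 differences passed the threshold under all 18 alternatives. Thus HERC6 fell in both lines and fell less in HSC3 cells.

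HERC5 went the other way, with a difference of -0.75 (SE 0.23, interval -1.25 to -0.25, edgeR adjusted p = 0.034). This call was lost with any library left out other than HSC3 DOX replicate 1 or 2 (edgeR adjusted p = 0.054 to 0.097), and when counts were divided by those per molecule (0.055). Over all alternatives its adjusted p ranged from 5.90e-04 to 0.097, with a difference below 0 in each. MUC1 fell less in HSC3 cells as well, from a far lower vehicle level, with a difference of 1.36 (edgeR adjusted p = 0.0010, at most 0.097 under the alternatives).

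At baseline most members were lower in vehicle-treated HSC3 cells than in vehicle-treated CAL27 cells. Lower levels were called for 5 of the 6 genes, against 32.3% of the 20694 genes tested. ISG15 was 7.07-fold lower (log2 difference -2.82, SE 0.18, edgeR adjusted p = 1.17e-09), HERC5 6.55-fold (-2.71, SE 0.17, edgeR adjusted p = 9.02e-10) and USP18 4.84-fold (-2.28, SE 0.20, edgeR adjusted p = 4.98e-08). UBE2L6 was 4.25-fold lower (-2.09, SE 0.090, edgeR adjusted p = 1.42e-11) and HERC6 3.06-fold lower (-1.61, SE 0.083, edgeR adjusted p = 1.17e-10). UBA7 was the exception, with libraries that overlapped between the lines and a log2 difference of -0.26 (interval -0.56 to 0.047, edgeR adjusted p = 0.13). 3 of 18 alternatives called UBA7 lower, the largest difference among them being -0.53 with library totals in place of TMM, and its adjusted p ranged from 0.0071 to 0.326 over the alternatives. The median of all genes in this comparison was -0.12 with TMM, -0.16 with DESeq2's size factors and -0.39 with library totals, so differences of this size depend on the scaling. Cell line, medium and set of libraries cannot be told apart here.

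With DOX, CAL27 cells still had more of most members than vehicle-treated HSC3 cells. ISG15 averaged 23.4 ± 1.58 CPM (SD, n = 3) in DOX-treated CAL27 cells and 8.60 ± 2.41 (SD, n = 3) in vehicle-treated HSC3 cells, and HERC5 averaged 13.0 ± 0.719 and 4.02 ± 0.258. HERC6 overlapped between these groups, at 19.9 ± 1.38 and 21.2 ± 1.88 CPM (SD, n = 3). For UBA7 the order was turned, with 6.74 ± 0.533 CPM in DOX-treated CAL27 cells and 15.3 ± 1.98 in vehicle-treated HSC3 cells (SD, n = 3). These pairs of groups were not tested against each other.

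Levels of different genes were compared per length, as RPKM (CPM per kilobase of annotated exon). In CAL27 vehicle cells ISG15 was highest at 70.4 ± 6.51 RPKM (SD, n = 3), followed by UBE2L6 at 58.6 ± 1.97, HERC6 at 11.2 ± 0.723 and HERC5 at 5.53 ± 0.345. UBA7 at 4.02 ± 0.199 RPKM and USP18 at 3.86 ± 0.243 came last, and these last 2 overlapped. With the longest transcript as the length, ISG15 (77.5 ± 7.17 RPKM) and UBE2L6 (76.9 ± 2.59) overlapped too. In CAL27 DOX cells UBE2L6 (30.4 ± 2.95 RPKM) and ISG15 (26.9 ± 1.83) overlapped, followed by HERC6 (3.44 ± 0.239), HERC5 (2.73 ± 0.151), and USP18 (1.59 ± 0.228) and UBA7 (1.48 ± 0.117), which overlapped. Thus the modifier and its conjugating enzyme were the most abundant transcripts among the members, and the activating enzyme and the protease were among the least.

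In HSC3 vehicle cells UBE2L6 was highest at 13.8 ± 1.19 RPKM (SD, n = 3), with ISG15 at 9.92 ± 2.78 and an overlap between them. HERC6 at 3.66 ± 0.326 RPKM and UBA7 at 3.36 ± 0.434 overlapped, as did HERC5 at 0.844 ± 0.0542 and USP18 at 0.799 ± 0.236. UBA7 therefore stood beside HERC6 in this line, whereas in CAL27 vehicle cells it was below both ligases. In HSC3 DOX cells UBE2L6 had 14.97 ± 1.61 RPKM and ISG15 10.6 ± 2.27, without overlap, followed by UBA7 (2.44 ± 0.569) and HERC6 (1.78 ± 0.0988), which overlapped, USP18 (0.688 ± 0.120), and HERC5 as the lowest of the 6 at 0.247 ± 0.0904.

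**Figure D3:**
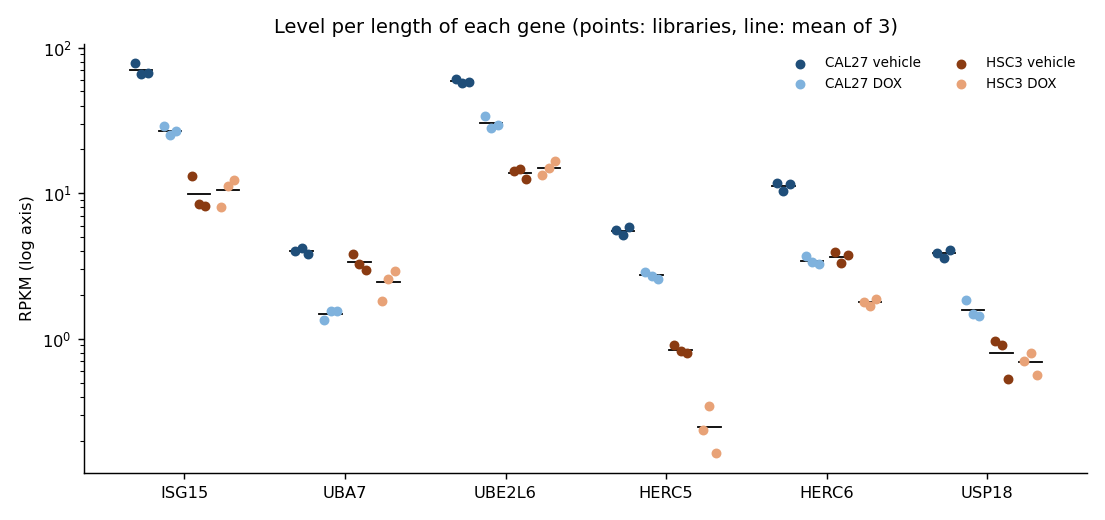
RPKM of each gene (y axis, log scale) by gene (x axis), line and treatment. Points are libraries and lines are means of 3. ISG15 and UBE2L6 are the highest in all 4 groups, and HERC5 in HSC3 DOX cells is the lowest value.

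How much modifier transcript there was for each enzyme transcript was followed as the ratio of RPKM within a library. Over HERC5, this ratio in CAL27 cells was 13.8, 12.8 and 11.6 with vehicle and 9.99, 9.30 and 10.4 with DOX. The HSC3 libraries had 14.5, 10.2 and 10.3 with vehicle and 34.1, 33.0 and 75.8 with DOX, the last of these resting on 94 counts of HERC5. Thus the lines overlapped with vehicle and did not overlap with DOX. Over HERC6, the ratio in CAL27 cells was 6.62, 6.35 and 5.85 with vehicle and 7.78, 7.45 and 8.28 with DOX. For HSC3 cells it went from 3.34, 2.55 and 2.19 to 4.48, 6.76 and 6.61. The DOX libraries were above the vehicle libraries in both lines for HERC6.

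Over the activating enzyme UBA7, the ratio in CAL27 cells was 19.5, 15.6 and 17.5 with vehicle and 21.4, 16.3 and 17.3 with DOX, and these overlapped. In HSC3 cells it was 3.42, 2.59 and 2.75 with vehicle and 4.40, 4.37 and 4.22 with DOX, so that HSC3 cells had far less ISG15 transcript per UBA7 transcript in either condition. Over UBE2L6 the ratio in CAL27 cells was 1.28, 1.16 and 1.15 with vehicle and 0.854, 0.893 and 0.917 with DOX, without overlap. In HSC3 cells it was 0.573 to 0.920 and 0.599 to 0.756. Over USP18 it overlapped between vehicle and DOX in both lines, at 16.5 to 19.9 and 15.6 to 18.8 in CAL27 cells and 9.34 to 15.5 and 11.4 to 21.9 in HSC3 cells. With 3 libraries against 3 an exact two-sided permutation test cannot go below p = 0.1. That value was given by the 6 of 10 ratios whose groups did not overlap, and it became 0.167 after adjustment over the 10 ratios.

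**Figure D4:**
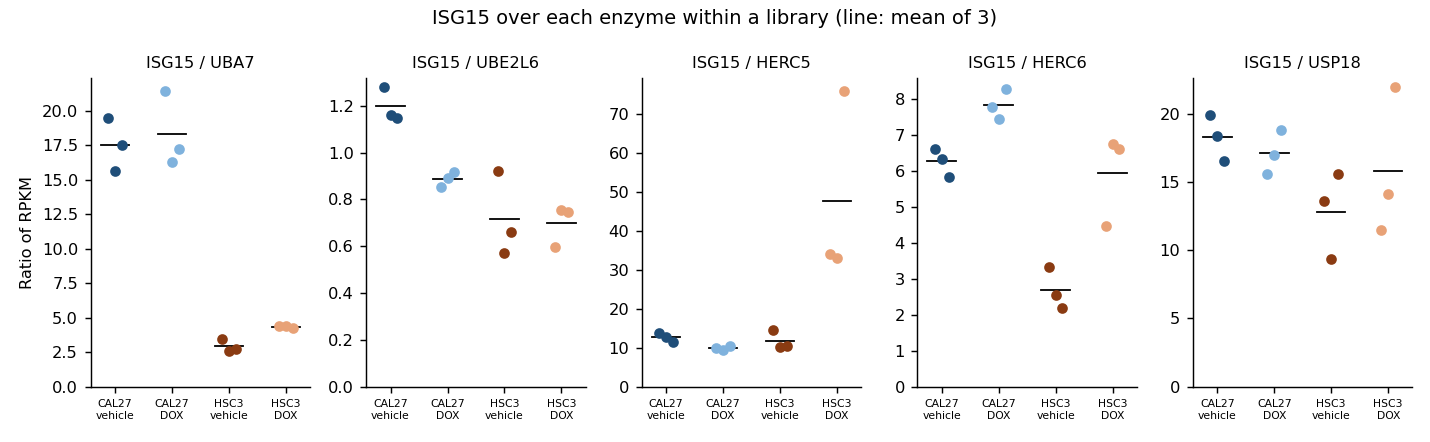
Ratio of ISG15 to each enzyme in RPKM within a library (y axes, starting at 0) by cell line and treatment (x axes). Points are libraries and lines are means of 3. The ratio over HERC5 stands highest in HSC3 DOX cells, at 33.0 to 75.8 against 9.30 to 14.5 elsewhere.

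Across the 12 libraries, with log2 CPM centered within each line, ISG15 followed UBE2L6 (r = 0.952), UBA7 (0.900) and USP18 (0.857) most closely, then HERC6 (0.761) and HERC5 (0.373). HERC5 followed HERC6 with r = 0.820. In the 6 CAL27 libraries alone every pair of members had an r of 0.954 to 0.998, and in the 6 HSC3 libraries alone the pairs ranged from -0.510 (UBE2L6 with HERC5) to 0.909 (HERC5 with HERC6). There ISG15 had 0.669 with UBE2L6, 0.504 with UBA7, 0.250 with USP18, -0.091 with HERC6 and -0.158 with HERC5. These values describe libraries that share line and treatment groups.

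Among the 8593 genes that averaged 3 or more on the log2 CPM scale in each line, LY6E was the most like ISG15 over the 12 libraries (r = 0.986), followed by NOTCH1 (0.980), VPS39 (0.971), ATF6B (0.964) and MAPK13 (0.964). LY6E, an IFN-inducible surface protein, had a log2 fold change of -0.85 in CAL27 cells (edgeR adjusted p = 6.99e-10) and -0.013 in HSC3 cells (0.96). The receptor NOTCH1 had -1.04 (edgeR adjusted p = 2.35e-14) and 0.11 (0.61). By Spearman's rho LY6E and MAPK13 remained among the closest 5.

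Beyond the 6 members, 11 genes listed as other enzymes and partners of the pathway were examined. In CAL27 cells 1 was called lower, 6 higher and 4 not called (median log2 fold change 0.16), against 21.8% lower and 22.6% higher of all genes. In HSC3 cells 10 were tested, of which 1 was lower, 5 higher and 4 not called (median 0.15), against 15.4% and 13.0% of all genes. The gene called lower in both lines was TRIM25, an IFN-inducible ligase for ISG15. It had 196.2 ± 5.804 and 144.3 ± 4.20 CPM (SD, n = 3) in vehicle-treated and DOX-treated CAL27 cells (log2 fold change -0.45, edgeR adjusted p = 7.29e-09). In HSC3 cells it had 273.9 ± 12.7 and 221.0 ± 5.87 CPM (SD, n = 3; log2 fold change -0.31, edgeR adjusted p = 0.0029). Its difference between the lines was 0.13 and was not called (edgeR adjusted p = 0.21). ARIH1, a ligase that can also pass on ISG15, had 0.054 in CAL27 cells (edgeR adjusted p = 0.26) and rose by a log2 fold change of 0.27 in HSC3 cells (0.018). ITGB2, a subunit of the LFA-1 receptor for secreted ISG15, rose from 1.52 to 2.12 CPM in CAL27 cells (edgeR adjusted p = 0.014) and from 14.6 to 18.9 CPM in HSC3 cells (0.047). The other LFA-1 subunit, ITGAL, had at most 12 counts in any library and was the gene not tested in HSC3 cells.

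The counterparts of the pathway in ubiquitin conjugation, with the HERC paralogs and USP41, numbered 12. In CAL27 cells 2 were lower, 2 higher and 8 not called (median log2 fold change -0.072), and of the 11 tested in HSC3 cells 2 were lower, 1 higher and 8 not called (median -0.040). The counts stand against the shares of all genes called, which were 21.8% lower and 22.6% higher in CAL27 cells, with 15.4% and 13.0% for HSC3. UBA6, the alternative activating enzyme for ubiquitin, was the member of this list that fell in both lines. It went from 171.5 ± 4.99 to 89.5 ± 0.967 CPM in CAL27 cells (SD, n = 3; log2 fold change -0.94, edgeR adjusted p = 1.02e-13) and from 269.8 ± 6.21 to 121.9 ± 12.8 CPM in HSC3 cells (SD, n = 3; log2 fold change -1.15, edgeR adjusted p = 1.51e-06). The main activating enzyme UBA1 had -0.032 and 0.0045 (edgeR adjusted p = 0.53 and 0.97). UBE2L3, the ubiquitin enzyme closest to UBE2L6, had 0.027 in CAL27 cells (edgeR adjusted p = 0.61) and fell by 0.21 in HSC3 cells (0.022). Of the paralogs HERC1 to HERC4, HERC4 rose by 0.38 in CAL27 cells (edgeR adjusted p = 1.63e-07), and none of the others was called in either line.

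The receptor and transcription factor genes upstream of the pathway were examined as a list of 6. In CAL27 cells 3 were lower and 3 not called (median log2 fold change -0.15), and in HSC3 cells 1 was lower and 5 not called (median -0.20), against 21.8% and 15.4% of all genes called lower. By DESeq2, 2 were lower in CAL27 cells. STAT2 fell from 231.5 ± 3.53 to 105.2 ± 3.94 CPM in CAL27 cells (log2 fold change -1.14, edgeR adjusted p = 8.88e-15) and from 138.4 ± 12.3 to 113.9 ± 5.05 CPM in HSC3 cells (log2 fold change -0.29, edgeR adjusted p = 0.018; SD, n = 3). Its fall was smaller in HSC3 cells by 0.86 (edgeR adjusted p = 6.06e-06), and the difference between the lines was also positive for 5 of the 6 members. The receptor gene IFNAR1 and the kinase gene JAK1 were not called in either line (log2 fold change -0.11 to 0.005). The other receptor gene, IFNAR2, was not called in CAL27 cells (-0.15, edgeR adjusted p = 0.63) or HSC3 cells (-1.13, 0.068). It had at most 131 counts in any library. TYK2, the other kinase gene, was called lower in CAL27 cells (-0.15, edgeR adjusted p = 0.041) but not in HSC3 cells (0.021, 0.91). IRF9, another of those called lower in CAL27 cells, had at most 30 counts in any library. The paper reports less IRF9 mRNA and protein after MUC1-C silencing in CAL27 cells, so these few counts may not show its level.

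**Figure D5:**
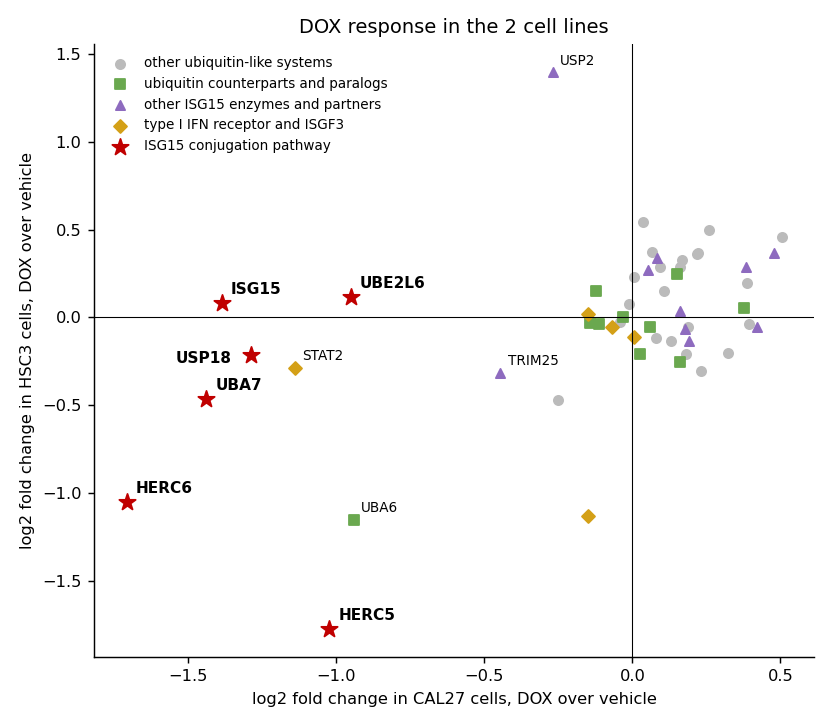
Log2 fold change with DOX in CAL27 cells (x axis) and HSC3 cells (y axis) for the 6 pathway members (stars) and 48 genes of the comparison lists with at least 100 counts in some library. Lines mark 0. The members lie to the left, between -1.71 and -0.95 in CAL27 cells, and spread from 0.12 down to -1.77 in HSC3 cells.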

How the data were processed

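RNA-seq was performed on 12 libraries of CAL27 and HSC3 tet-MUC1shRNA cells. Libraries were stranded and poly(A)-selected, and the submitters' processing notes name FastQC 0.11.9, STAR 2.7.9a, Subread 2.0.1 and featureCounts with GRCh38. The authors deposited whole-number counts per gene symbol for each line, without normalization. The annotation counted, the strand setting and the handling of duplicates are not given in the sources used here. Of the 39368 symbols 38934 matched GENCODE v44, which gave positions and exon lengths. The CAL27 DOX columns carry other numbers than the samples and were used as a group without replicate numbers.

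Counts were analysed in R 4.3.3 with edgeR 4.0.16 (TMM, filterByExpr at a minimum count of 10 and minimum total of 15, robust glmQLFit, glmQLFTest). Each line was fitted alone for DOX against vehicle, and all 12 libraries together for the interaction and the baseline. The SE is the log2 fold change divided by the square root of F. Alternatives were DESeq2 1.42.0, other scalings and filters, division by the counts per molecule, a replicate block and leaving out each library. The counts behind a molecule were estimated from the frequency of zeros among genes of low expected count. The fits were tested on simulated data in which 200 genes differed by 1.5 on the log2 scale. Of these, 100.0% were recovered in CAL27 (19204 genes), 100.0% in HSC3 (18111 genes) and 99.50% in the interaction (19857 genes), and 13 of 213, 13 of 213 and 6 of 205 genes called were unchanged ones. The estimator of counts per molecule read high on simulated libraries, giving 4.04, 7.77 and 15.2 where 3, 6 and 12 had been set. Replicate pairs differed beyond counting noise (chi-square per degree of freedom 6.35 to 119), and each library was counted as 1 sample.

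The text names the 6 members, MUC1, the 5 genes most like ISG15 by Pearson r and genes of fixed lists where a sentence is about the list. Some genes of the lists are not reported here. Members and lists were chosen with earlier results of these data known.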

Additional observations from a re-analysis of the deposited data

Results flagged for a closer look

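The response to DOX differed between the lines by the test of the interaction (edgeR adjusted p under 0.05) for 17 of 58 genes examined, 8 with a positive and 9 with a negative difference, against 8.25% and 12.3% of all genes tested. USP41, which was also called, is left out because its HSC3 DOX libraries were all at 0. The HSC3 response minus the CAL27 response was 1.47 on the log2 scale for ISG15, 0.98 for UBA7, 1.07 for UBE2L6, 0.66 for HERC6 and 1.07 for USP18, and -0.75 for HERC5. It was 1.36 for MUC1. STAT2 stood with the majority of the pathway at 0.86.

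Among the other enzymes and partners, the difference was 1.67 for USP2, a protease with several reported targets. USP2 had 0.993 ± 0.163 and 0.824 ± 0.0860 CPM (SD, n = 3) with vehicle and DOX in CAL27 cells and 1.43 ± 0.543 and 3.75 ± 0.833 CPM (SD, n = 3) in HSC3 cells. The difference was -0.47 for USP13 and -0.32 for USP16. Among ubiquitin counterparts and paralogs it was -0.24 for UBE2L3 and -0.32 for HERC4. Among enzymes and modifiers of SUMO and NEDD8 it was -0.39 for SUMO3, -0.53 for SAE1, -0.53 for UBA2 and -0.43 for UBE2M.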

How the results depend on the processing

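Of 378 alternative values of the members' fold changes and differences, 359 kept their side of the threshold. A further 11 lost the call, 8 gained it and 0 reversed a called direction. Among the 359, 3 changed sign without being called, all of ISG15 with DOX in HSC3 cells. The 11 lost calls were all of the HERC5 difference between the lines, and the 8 gained were of UBA7, 5 with DOX in HSC3 cells and 3 at baseline. The count of members called with a negative difference between the lines went from 1 to 0 when counts were divided by those per molecule, and to 0 with FC>2, and was 0 to 1 with each library left out. The count with a positive difference went from 5 to 3 with FC>2. With the longest annotated transcript in place of all exons, the median RPKM of the members was 12.3 in CAL27 vehicle, 4.48 in CAL27 DOX, 5.11 in HSC3 vehicle and 3.04 in HSC3 DOX cells, against 8.37, 3.08, 3.51 and 2.11. With Spearman's rho, 2 of the 5 genes most like ISG15 were shared. The r of same-numbered deviations of the HSC3 libraries was -0.199, 0.342 and -0.340 over 9133 genes. With 3 libraries per group these values cannot decide whether the replicate numbers mark paired cultures. With the replicate number as a block, 2 members were called lower and 0 higher in HSC3 cells, HERC5 at a log2 fold change of -1.83 and HERC6 at -1.05, and no member's call changed. The block could not be fitted in CAL27 cells, whose DOX columns carry no such number, and was not run for the interaction. With up to 17.2 estimated counts per molecule, HERC5 in HSC3 DOX cells may be limited more than its counts of 94 to 220 show. That estimate reads high and also takes in differences between replicates.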

Other observations

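Conjugation systems other than ISG15 and ubiquitin were examined as a list of 24 genes, of which UBD, an IFN-inducible modifier, had 0 counts in all libraries and 23 were tested. In CAL27 cells 1 was lower, 11 higher and 11 not called with DOX (median log2 fold change 0.16), and in HSC3 cells 4 were lower, 7 higher and 12 not called (median 0.15). Of all genes tested, 21.8% were called lower and 22.6% higher in CAL27 cells, with 15.4% and 13.0% for HSC3. SAE1 and UBA2, which together form the activating enzyme for SUMO, rose in CAL27 cells and fell in HSC3 cells. SAE1 went from 117.7 ± 1.98 to 147.7 ± 4.78 CPM in CAL27 cells (SD, n = 3; log2 fold change 0.32, edgeR adjusted p = 6.50e-07) and from 122.2 ± 3.69 to 106.5 ± 2.33 CPM in HSC3 cells (SD, n = 3; -0.20, edgeR adjusted p = 0.029). UBA2 went from 202.7 ± 5.30 to 238.3 ± 7.76 CPM (SD, n = 3; 0.23, edgeR adjusted p = 4.10e-05) and from 269.9 ± 7.25 to 219.4 ± 14.2 CPM (SD, n = 3; -0.30, edgeR adjusted p = 0.0038).

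ATG3 and ATG12, of the autophagy conjugation systems, rose in both lines, whereas ATG7 and ATG10 of these systems were not called in either. ATG3 had log2 fold changes of 0.50 in CAL27 cells (edgeR adjusted p = 6.55e-10) and 0.46 in HSC3 cells (0.0060), and ATG12 had 0.26 (9.21e-05) and 0.50 (0.0041). UFM1, a further ubiquitin-like modifier, fell in both lines, by 0.25 (edgeR adjusted p = 0.0047) and 0.47 (0.0022).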
